A study of Macaca mulatta with 8 samples.

Results

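Selenoprotein genes were examined in the primary motor cortex (M1) and in area 46 (A46) of rhesus macaques. M1 is the neocortical area that commands movement, and A46 belongs to the prefrontal cortex, which serves working memory and planning. The genes were SELENOP, GPX1, GPX3, GPX4, SELENOW, SELENOK, SELENOT and TXNRD1, and their probes were found through the RefSeq transcript identifier that the array design gives for each probe. Of these 8 genes, 7 had a probe, 8 probes in all because GPX1 had 2, out of 835 named genes and 20217 probes on the array. No probe was matched to TXNRD1, the cytosolic thioredoxin reductase, which is not analysed here. Only 898 of the 20217 probes were given a gene name. A gene said here to have no probe is one with no matched probe, and an unnamed probe may still measure it. The tissue came from the left hemispheres of 4 untreated rhesus monkeys aged 2.6 to 2.7 years. M1 was taken from its forelimb part and A46 from both banks of the principal sulcus. Each area was measured on 4 single-colour arrays, numbered 1 to 4 within the area, and no label ties a number to an animal.

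Selenoproteins carry selenocysteine, an amino acid with selenium in place of the sulphur of cysteine, which the ribosome inserts at a UGA codon when the messenger RNA also holds a structured element downstream of its coding region. Many of them are enzymes that reduce peroxides or disulphides with glutathione or thioredoxin as the electron donor. The brain keeps its selenium when other organs are depleted, and in mice the loss of selenium transport or of GPX4 in neurons causes neurological disease.

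All 8 probes were well above background on all 8 arrays. Levels are given as log2 of the background-subtracted signal minus the 75th percentile of the array, so that 0 is the signal below which 75% of the probes of that array lie. Differences are M1 minus A46 on this log2 scale. Each probe was present in 2 spots, whose log2 signals differed by a median of 0.07 to 0.15 depending on the probe. On the arrays, 71.4% to 77.3% of probes were well above background and the 75th percentile lay between 1232 and 2008 scanner units. The RNA integrity numbers were 8.0 to 9.5, per the labels. The arrays were scanned on 4 days, with A46 replicates 3 and 4 and M1 replicate 4 on the 2 later ones, and the arrays numbered 1 shared a slide. In tissue RNA, fewer cells of a type and less RNA per cell cannot be told apart.

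SELENOP, which encodes the secreted selenoprotein P that carries selenium between organs and, within the brain, to neurons, was the member with the clearest difference between the areas. The probe A_01_P011182 lay at 3.99, 4.12, 3.53 and 4.47 in M1 (replicates 1 to 4), against 3.39, 3.44, 3.10 and 3.53 in A46. The areas touched at one point only, since M1 replicate 3 lay 0.005 below A46 replicate 4. The mean was 4.03 ± 0.39 in M1 and 3.37 ± 0.19 in A46 (SD, n = 4 each), a log2 difference of 0.66 ± 0.20 SE or a 1.58-fold higher level in M1. Tested by limma on area alone and adjusted over all 14698 tested probes, it did not pass (adjusted p = 0.307, 95% interval 0.20 to 1.13). With the replicate number as a block it passed (blocked adjusted p = 0.0445, blocked SE 0.11, 95% interval 0.40 to 0.93).

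Within same-numbered arrays, SELENOP was higher in M1 by 0.60, 0.68, 0.43 and 0.94 for numbers 1 to 4. M1 was the higher area in 4 of 4 pairs. Within a scan day that held both areas the difference was 0.38 on the first day (M1 replicates 2 and 3 against A46 replicate 2), 0.60 on the next and 0.94 on the third. With the scan day as a block it was 0.61 and did not pass (adjusted p = 0.158). A46 replicate 3 was alone on its scan day and adds nothing to the area difference in that fit. The blocked call was lost when the pair numbered 1, 2 or 4 was left out (adjusted p = 0.198, 0.184 and 0.167) and with no filter on dim probes (0.138). Of all tested probes 2, 0 and 1 passed without these pairs and 0 with no filter, against 380 in the full blocked fit. The loss is therefore not particular to SELENOP, whose difference was 0.68, 0.66 and 0.57 without these pairs. Without the 3 arrays of the later scan days the difference was 0.46 (adjusted p = 0.693).

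**Figure D1:**
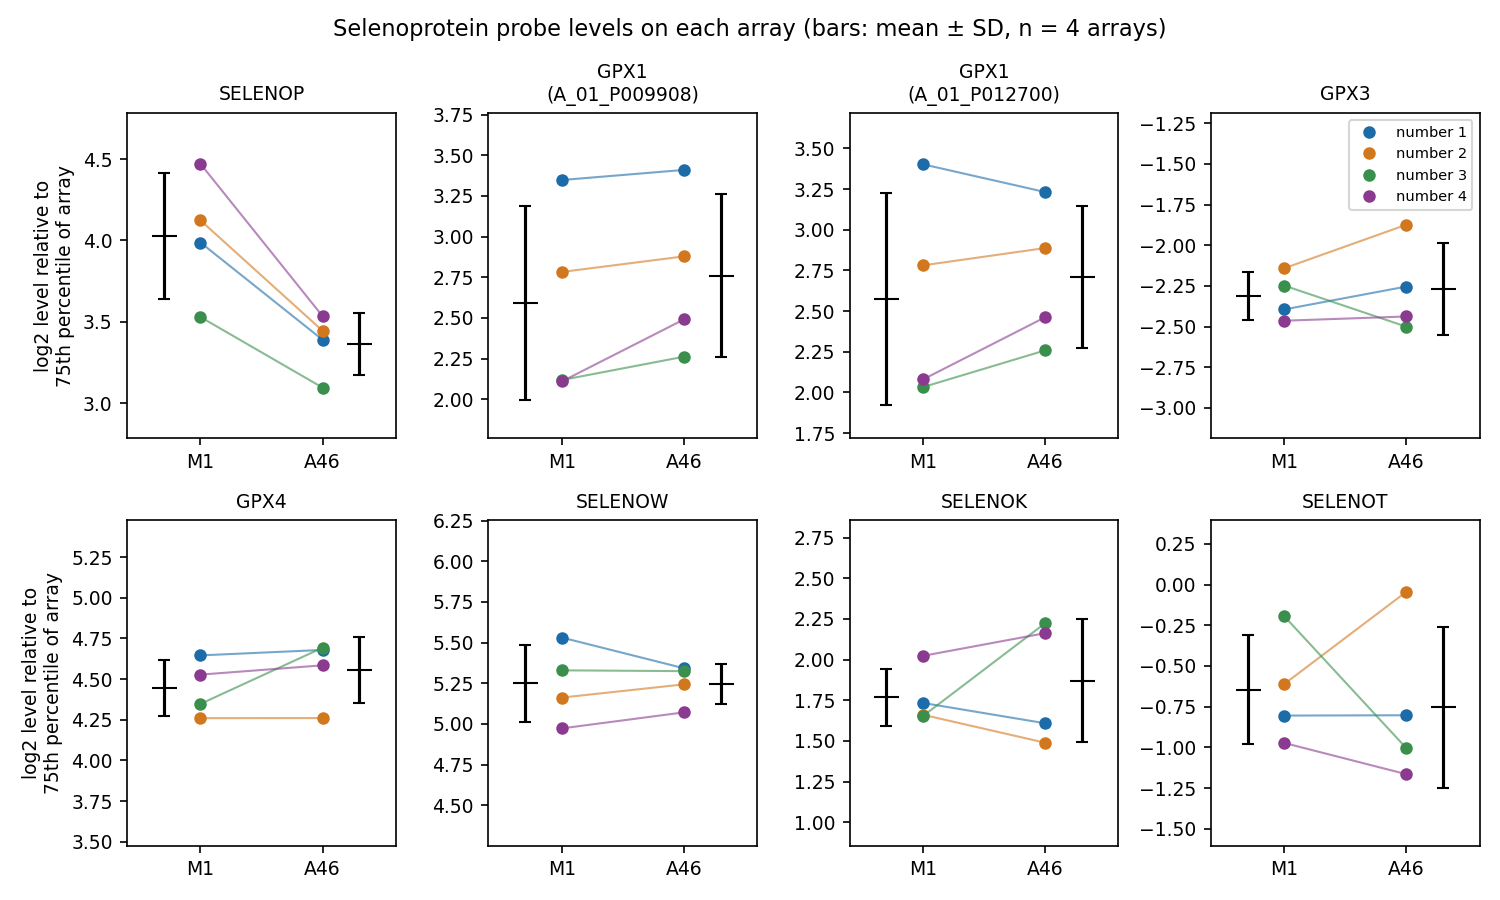
Log2 level of each selenoprotein probe above or below the 75th percentile of its array, in M1 (left of each panel) and A46 (right), with lines joining arrays of the same replicate number and black bars for the mean and SD of 4 arrays; every panel spans 2 log2 units. SELENOP lay higher in M1 for each number (0.43 to 0.94), whereas both GPX1 probes were highest on the arrays numbered 1 in both areas (3.23 to 3.41).

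Markers of other cell types were followed beside SELENOP. The marker lists were chosen with earlier results of these data known, so their values are a description. Of 10 oligodendrocyte markers 3 had a matched probe, UGT8, TSPAN2 and ZNF488, and none was at background. Their summed signal, in multiples of the 75th percentile, ran from 0.251 to 0.516 in M1 and from 0.0908 to 0.132 in A46. UGT8 was the brightest of the 3, with a mean level of -1.96 in M1 against -5.21 for TSPAN2 and -5.22 for ZNF488. The highest sum was that of M1 replicate 2, where UGT8 lay at -1.14 against -2.28 to -2.13 on the other M1 arrays. UGT8, the enzyme of galactocerebroside synthesis, differed by 1.64 (adjusted p = 0.0624, 0.0287 with the block). ZNF488, a regulator of oligodendrocyte differentiation, differed by 1.37 (adjusted p = 0.0841, 0.0391 with the block), and the tetraspanin TSPAN2 by 0.38 (0.287, 0.111 with the block). The blocked calls of UGT8 and ZNF488 were lost without the pair numbered 2 and with no filter, where 0 of all tested probes passed. They were also lost without the pair numbered 4, where 0 passed with M1 higher. Of 8 astrocyte markers only FGFR3 had a probe, with a summed signal of 5.88 to 7.90 in M1 and 6.44 to 8.48 in A46, a difference of -0.05. Of 6 endothelial markers only ACKR1, a chemokine-binding receptor, had one, with 1.52 to 2.91 in M1 and 2.25 to 3.81 in A46. Its difference was -0.66 (adjusted p = 0.430, 0.0473 with the block). ACKR1 was lower in M1 in 4 of 4 pairs and passed with the block in the opposite direction to SELENOP. The blocked call was lost when the pair numbered 1, 2, 3 or 4 was left out (adjusted p = 0.199, 0.187, 0.0693 and 0.118). Of all tested probes 2, 0, 405 and 1 passed in those fits. The ACKR1 call was also lost with no filter on dim probes (0.142), where 0 of all tested probes passed, and with the block under normexp scaling (0.0619). It was kept with the block under quantile (0.0473) and median scaling (0.0360), and with a random replicate block (0.0306). With the scan day as a block ACKR1 did not pass (0.0708). Its level was 1.51 to 1.93 on the 3 later scanned arrays and 0.61 to 1.48 on the 5 earlier ones. Of 6 blood markers only HBE1 had one, with 0.0116 to 0.0244 in M1 and 0.0102 to 0.0251 in A46, a difference of -0.07 (adjusted p = 0.979; blocked 0.894). The neuron list (10 genes), the microglia list (8 genes), the lists of oligodendrocyte precursors (3 genes) and of mural and meningeal cells (6 genes) had no matched probe, so the labelled tissue could not be checked against neuronal markers. The part of these cell types in the SELENOP difference was not tested.

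Among the glutathione peroxidases, which reduce peroxides with glutathione, no gene passed the test between the areas in either fit. GPX1, the cytosolic and mitochondrial enzyme, was measured by 2 probes. Probe A_01_P009908 lay at 3.35, 2.78, 2.12 and 2.11 in M1 (replicates 1 to 4), against 3.41, 2.88, 2.26 and 2.49 in A46. Probe A_01_P012700 lay at 3.40, 2.78, 2.03 and 2.08 in M1, against 3.23, 2.89, 2.26 and 2.46 in A46. On both probes the arrays numbered 1 were highest, those numbered 2 came next and those numbered 3 and 4 were lowest, in M1 as in A46. The profiles of the 2 probes, each centred on its own mean, differed by at most 0.15 on any array. Between the areas, the first probe differed by -0.17 ± 0.34 SE (adjusted p = 0.946, 0.346 with the block) and the second by -0.14 ± 0.34 SE (adjusted p = 0.963, 0.527 with the block).

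Most of the spread of GPX1 lay between replicate numbers. The mean of same-numbered arrays ranged over 1.19 log2 units on the first probe and 1.17 on the second, while the areas differed within a number by at most 0.38 on either. Replicate number held 95.2% of the variance over the 8 arrays on the first probe and 93.7% on the second, against a median of 66.3% over all tested probes, and 93.1% of tested probes had a lower share than the second probe. Replicate number and scan day overlap. On the first probe the 3 later scanned arrays lay at 2.11 to 2.49 and the 5 earlier ones at 2.12 to 3.41, a mean difference of -0.62 (later minus earlier), and both arrays numbered 1, scanned on a day of their own, were highest. M1 replicate 3, an earlier array scanned on the same day as both arrays numbered 2 (2.78 in M1 and 2.88 in A46), lay at 2.12. The part of the scan day in this spread was not tested. GPX1 messenger RNA is known from rodents to be sensitive to selenium supply, and selenium was not measured here. Whether the numbers stand for animals is not given in the labels, so that animal and array handling cannot be told apart.

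**Figure D2:**
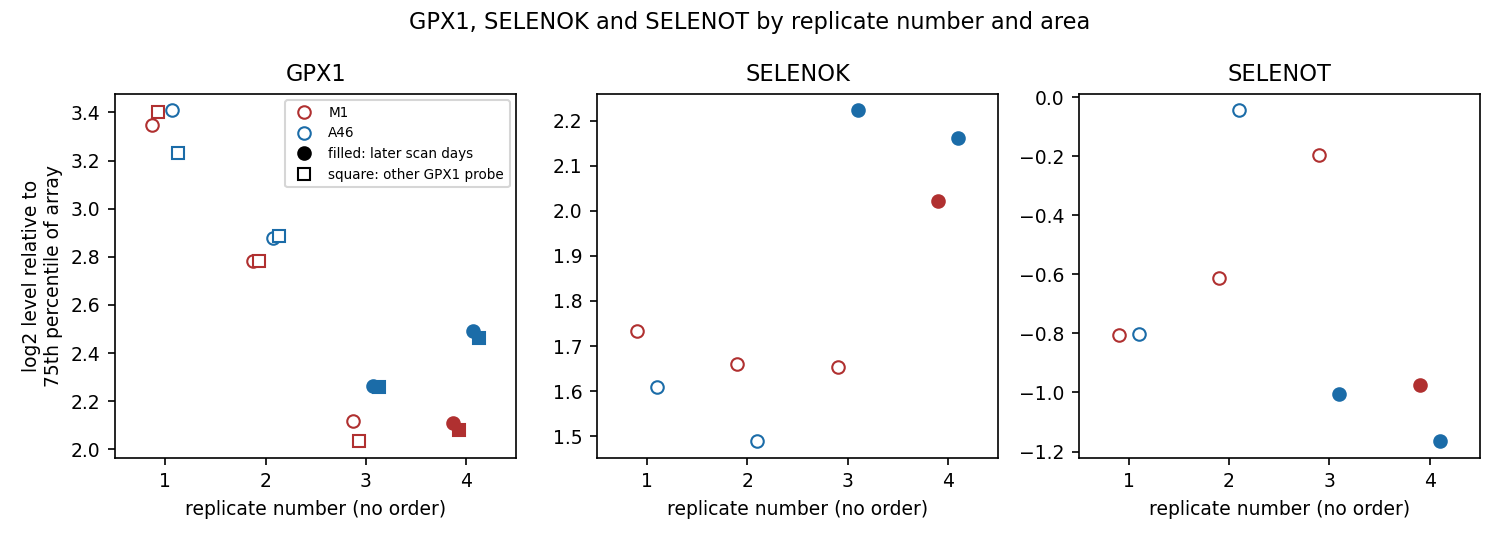
Log2 level above or below the 75th percentile of the array for GPX1 (circles and squares for its 2 probes), SELENOK and SELENOT by replicate number, with M1 in red left of A46 in blue and filled symbols for the 3 arrays of the later scan days. GPX1 values grouped by number (3.23 to 3.41 for number 1), whereas the filled symbols of SELENOK lay at 2.02 to 2.22 above all open ones.

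GPX4, which reduces lipid peroxides within membranes and is the enzyme whose loss triggers ferroptosis, lay at 4.65, 4.26, 4.35 and 4.53 in M1, against 4.68, 4.26, 4.69 and 4.58 in A46. Its range over all 8 arrays was 0.43. The area difference was -0.11 ± 0.14 SE (adjusted p = 0.916, 0.548 with the block), and its 95% interval ran from 0.738-fold to 1.17-fold. GPX3, the secreted plasma enzyme, lay at -2.39, -2.14, -2.25 and -2.46 in M1, against -2.25, -1.87, -2.50 and -2.44 in A46. The areas overlapped throughout, with a difference of -0.05 ± 0.16 SE (adjusted p = 0.971, 0.839 with the block; 95% interval 0.751-fold to 1.25-fold).

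SELENOW encodes a small cytosolic protein with a thioredoxin-like fold that is abundant in muscle and brain. It lay at 5.53, 5.16, 5.33 and 4.97 in M1, against 5.34, 5.24, 5.32 and 5.07 in A46. Its signal stood at the 99.3rd to 99.9th percentile of all probes on every array. The mean was 5.25 ± 0.24 in M1 and 5.25 ± 0.12 in A46 (SD, n = 4 each), a difference of 0.004 ± 0.15 SE (adjusted p = 0.997, 0.986 with the block), and the 95% interval ran from 0.797-fold to 1.26-fold. Number 1 was highest and number 4 lowest in both areas. Replicate number held 88.0% of its variance, against a median of 66.3% over all tested probes, within a range of 0.56 over the arrays.

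SELENOK and SELENOT are both proteins of the endoplasmic reticulum membrane, SELENOK with a role in protein degradation and palmitoylation there and SELENOT with a thioredoxin-like fold. SELENOK lay at 1.73, 1.66, 1.65 and 2.02 in M1, against 1.61, 1.49, 2.22 and 2.16 in A46. The 3 high values were those of the later scan days, 2.02 to 2.22 against 1.49 to 1.73 on the 5 earlier arrays. SELENOT showed the opposite order, at -0.80, -0.61, -0.19 and -0.97 in M1, against -0.80, -0.04, -1.01 and -1.17 in A46, with the later arrays at -1.17 to -0.97 and the earlier ones at -0.80 to -0.04. GPX3 was also lower on the later arrays, at -2.50 to -2.44 against -2.39 to -1.87. These 3 of 7 members did not overlap between later and earlier arrays, where 30.0% of all tested probes did not.

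Neither gene passed the test between the areas in either fit. The difference was -0.10 ± 0.20 SE for SELENOK (adjusted p = 0.946; blocked 0.709) and 0.11 ± 0.27 SE for SELENOT (adjusted p = 0.963; blocked 0.803). In the pair numbered 3, whose A46 array was scanned on a later day than its M1 array, SELENOK differed by -0.57 and SELENOT by 0.81. In the pairs numbered 1, 2 and 4, each scanned on one day, SELENOK differed by 0.12, 0.17 and -0.14, and SELENOT by -0.002, -0.57 and 0.19. With the scan day as a block SELENOK stood at 0.06 and SELENOT at -0.09, each of the other sign than without it. In that fit the A46 array numbered 3, alone on its day, adds nothing to the difference.

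Of the 7 members, 0 passed in the limma fit on area alone, where 0.184% of all tested probes passed, and 1 of 7 had an unadjusted p under 0.05, where 9.44% of all tested probes did. With the replicate number as a block 1 of 7 passed, SELENOP, where 2.59% of all tested probes passed in either direction and 1.61% of all tested probes passed with a higher level in M1. SELENOP was included with this result already known, so its count is a description. The median difference of the members was -0.05, with 3 above 0 and 4 below, beside a median of -0.01 over all tested probes. No member had areas without overlap, where 6.46% of all tested probes did. Without the block, the 95% intervals of 6 members lay within a 2-fold difference in either direction, SELENOP being the exception, and those of GPX3, GPX4, SELENOW and SELENOK lay within 1.5-fold. With the block, that of GPX1 lay within 1.5-fold too. For GPX1 without the block and for SELENOT in both fits, a difference of 1.5-fold was within the interval.

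**Figure D3:**
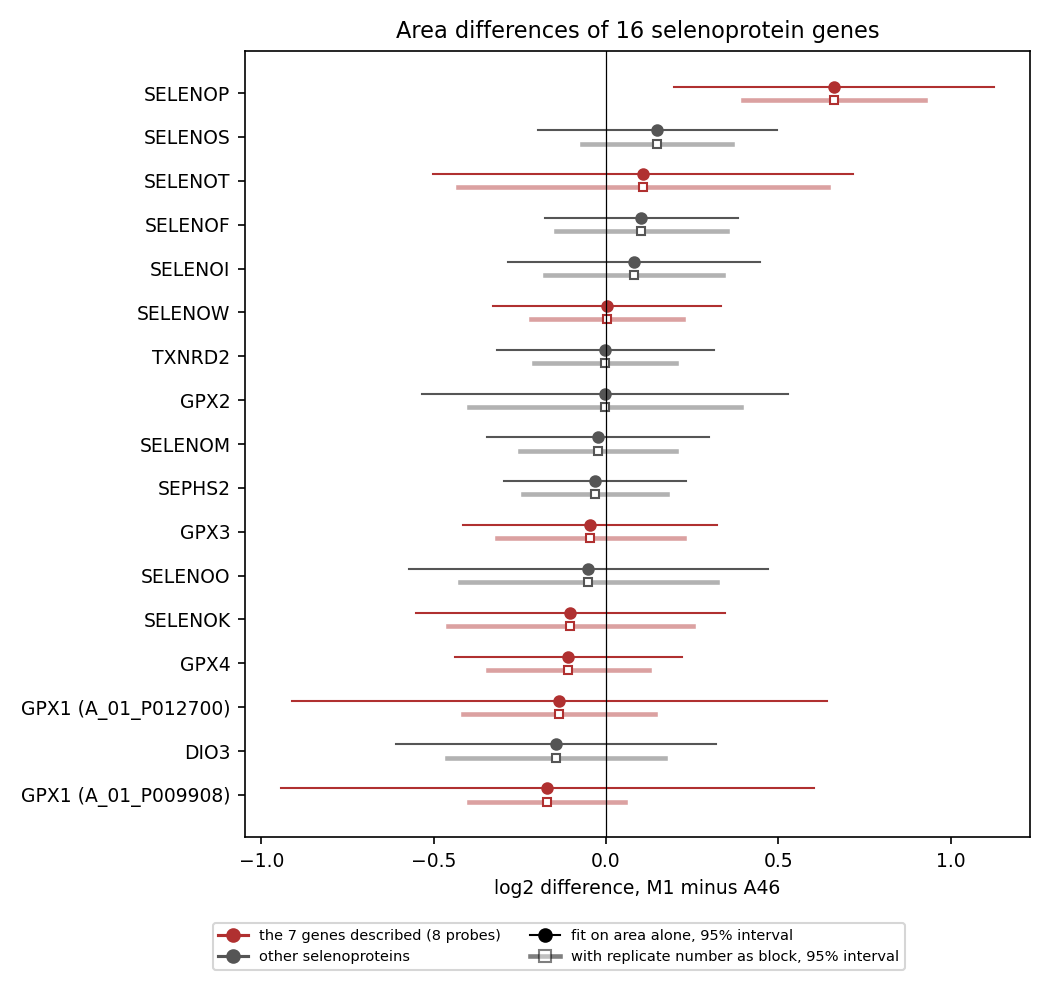
Log2 difference, M1 minus A46, of each tested selenoprotein probe with its 95% interval from the fit on area alone (upper, thin) and with the replicate number as a block (lower, thick), the 7 genes described in red and other selenoproteins in grey. The SELENOP intervals (0.20 to 1.13 and 0.40 to 0.93) lay above 0, and every other interval held 0.

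Other selenoprotein genes were read from a list of 17, of which 11 had a matched probe and 9 were well enough detected to be tested. Of these 9, 0 passed in either direction in either fit, and 0 had an unadjusted p under 0.05 in either fit, where 21.3% of all tested probes did with the block. Their differences lay between -0.15 and 0.15, with a median of -0.003, 3 above 0 and 6 below. TXNRD2, the mitochondrial thioredoxin reductase, lay at 2.01, 1.58, 1.89 and 1.75 in M1, against 1.87, 1.59, 1.96 and 1.81 in A46, a difference of -0.002 ± 0.14 SE. Replicate number held 92.1% of its variance, within a range of 0.43 over the arrays. The median of that share was 76.4% over these 9 genes and 66.3% over all tested probes. SEPHS2, which makes the selenium donor for selenocysteine and is itself a selenoprotein, differed by -0.03 ± 0.12 SE, and its levels over all 8 arrays lay within 0.31 log2 units.

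Among selenoproteins of the endoplasmic reticulum, SELENOS, a partner of SELENOK in protein degradation, had the highest difference, 0.15 ± 0.15 SE (adjusted p = 0.879; blocked 0.386). It lay at 1.72, 1.89, 1.58 and 1.46 in M1, against 1.72, 1.69, 1.29 and 1.35 in A46. SELENOF, which binds a glycoprotein folding sensor, stood at 0.10 ± 0.12 SE, SELENOM, a protein with a thioredoxin-like fold, at -0.02 ± 0.14 SE and SELENOI, an enzyme of phosphatidylethanolamine synthesis, at 0.08 ± 0.16 SE. SELENOO, a mitochondrial protein that adds AMP to other proteins, stood at -0.05 ± 0.23 SE. SELENOO and SELENOS were lower on the 3 later scanned arrays, at -0.49 to -0.11 against 0.01 to 0.44 for SELENOO and at 1.29 to 1.46 against 1.58 to 1.89 for SELENOS. They were 2 of the 9 tested genes of this list without overlap between later and earlier arrays, where 30.0% of all tested probes did not overlap. GPX2, known mainly from the gut, stood at -0.003 ± 0.23 SE and DIO3, which inactivates thyroid hormone, at -0.15 ± 0.20 SE, both with dim probes between -6.04 and -4.67. GPX6 was well above background on 0 of 4 arrays in M1 and 1 of 4 in A46, and DIO1, which activates thyroid hormone, on 1 of 4 in each, so neither was tested.

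**Figure D4:**
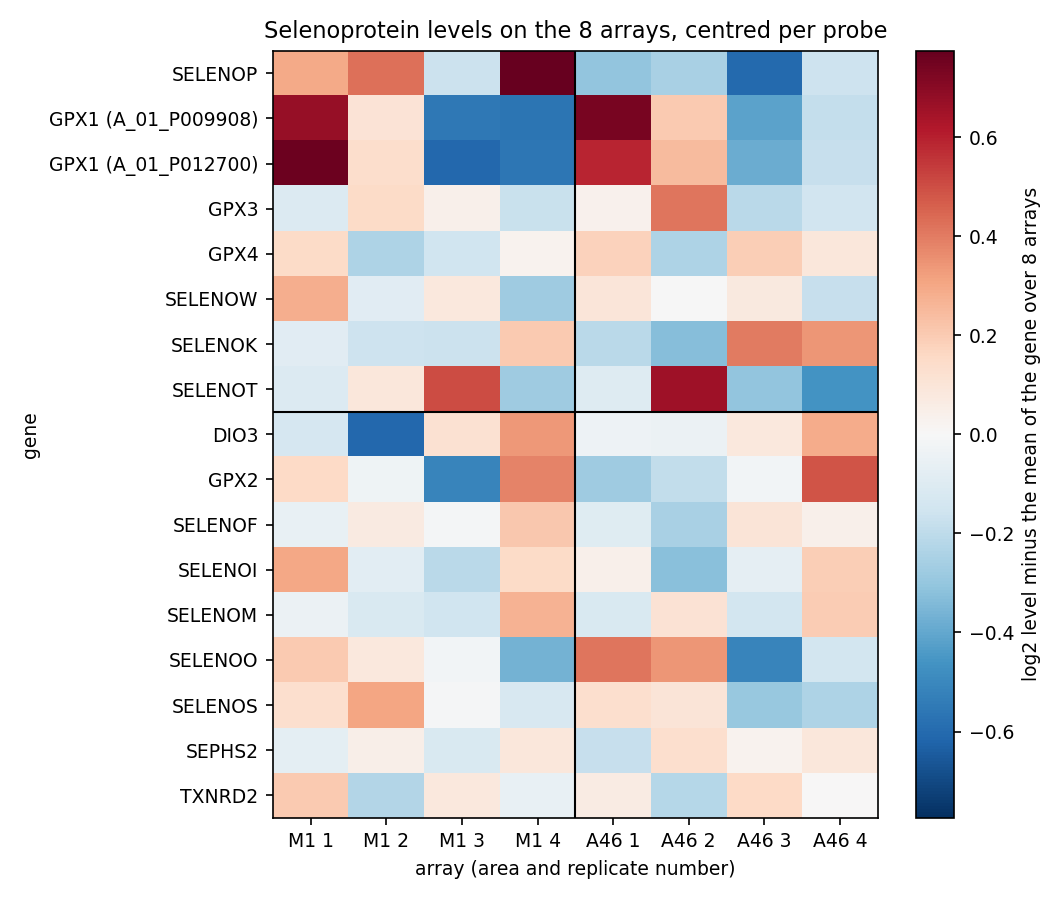
Log2 level of each tested selenoprotein probe on the 8 arrays minus the mean of the probe, M1 on the left and A46 on the right, the 7 genes described above the line and other selenoproteins below it. SELENOP is higher in M1 than in A46 for each number, GPX1 is high on both arrays numbered 1, and SELENOK is high on A46 replicates 3 and 4 and M1 replicate 4.

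Partner genes of the selenoenzymes were mostly without a matched probe. Of 14 genes of selenium uptake and selenocysteine synthesis only SEPSECS, which completes selenocysteine on its transfer RNA, had one, with a difference of 0.13 ± 0.21 SE (adjusted p = 0.935; blocked 0.669). Of 39 glutathione genes 3 had a probe and 2 were tested. The glutathione transferase gene GSTP1 differed by 0.07 ± 0.10 SE, and GPX7, a peroxidase with cysteine in place of selenocysteine, by -0.34 ± 0.18 SE (adjusted p = 0.658; blocked 0.213). The GPX7 probe was dim, at -6.23 to -5.47, as was that of SEPSECS, at -6.81 to -5.76. After normexp background correction the GPX7 difference was -0.07. GPX5, also a cysteine enzyme, was well above background on no array. Of 20 thioredoxin genes only TXN, the thioredoxin that TXNRD1 reduces, had a probe, at 0.005 ± 0.16 SE. Of 14 genes of degradation at the endoplasmic reticulum only SEL1L had one, which was well above background on no array. None of 15 genes of superoxide and peroxide defence had a matched probe.

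Probe signals depend on the probe's sequence as well as on the amount of RNA, so the position of a probe on the array does not rank the genes by abundance. As signals among all probes of an array, SELENOW, GPX4 (98.8th to 99.2nd percentile), SELENOP (95.5th to 98.7th), GPX1 (90.7th to 96.7th over both probes) and SELENOK (87.4th to 91.7th) were in the bright part, while SELENOT lay at the 64.8th to 74.6th percentile and GPX3 at the 53.7th to 59.0th.

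The named genes whose profile over the 8 arrays was closest to a member were found by the root mean square difference between centred log2 levels, among 585 named probes. For SELENOP these were ZWINT (0.16), TK2 (0.23) and TSPAN2 (0.26), against a median of 0.51 over the named probes. Their probes were dim, with levels between -6.72 and -5.07, where SELENOP lay at 3.10 to 4.47. ZWINT, a kinetochore protein, stood at 0.55 (adjusted p = 0.377, 0.0978 with the block) and TK2, the mitochondrial thymidine kinase, at 0.59 (adjusted p = 0.114, 0.0640 with the block). The closest to GPX1 was RSBN1 (0.18), which lay at 0.84, 0.51, 0.25 and 0.10 in M1, against 1.21, 0.63, 0.17 and 0.30 in A46. For the others the closest were B3GALT6 to GPX3 (0.08), the ribosomal protein gene RPL7A to GPX4 (0.05), MAP1A to SELENOW (0.09), OAZ1 to SELENOK (0.09) and ZMIZ1 to SELENOT (0.14).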

How the data were processed

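Total RNA was labelled with Cy3 after oligo(dT) priming, per the labels. The deposited intensity values came from Agilent Feature Extraction (version 10.7.3.1), background-subtracted and detrended within each array, on a probe design for rheMac2, per the file headers. The authors' deposited series table holds log2 values, used as an alternative. In all 28 pairs of columns its array-to-array differences matched those of the scanner values within a median of 0.0091 log2 units, which gives its scale and direction. Its column medians were -0.06 to 0.09, and the centring of its probes stays unknown.

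Control spots (1417 of 41851) and spots called outliers (0 to 220 per array) were left out, and the log2 intensity was averaged over 2 spots per probe and set against the array's 75th percentile. No spot was saturated. A probe was fitted if it was well above background throughout M1 or throughout A46, which left 14698, by limma 3.58.1 (lmFit and eBayes, R 4.3.3) on area alone, with Benjamini-Hochberg adjustment over all of them at 0.05. The fit was tested on simulated data. Python 3.11.15 and pandas 2.3.3 were used for the tables. Precision is limited by the number of arrays.

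RefSeq identifiers were matched, versions dropped, to RefSeq genes of T2T-MMU8v2.0, for names only: 942 of 5583 matched, 898 with a gene name. No coordinates or sequences are given.

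Deviations from the area mean correlated between same-numbered arrays with r = 0.726, 0.634, 0.169 and 0.858 (numbers 1 to 4), each over the 0.1 required, so blocked values are given. Arrays of unlike numbers also passed 0.1, M1 replicate 4 with A46 replicate 3 (r = 0.481) and M1 replicate 3 with A46 replicate 2 (r = 0.259), the first scanned on later days and the second on the same day, so a shared number and shared scanning cannot be told apart. Without an animal behind each number, p-values measure only the spread between these samples.

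The members and gene lists were chosen with earlier results of these data known. All members were named, with every matched gene of the lists, and the named genes closest in profile (3 for SELENOP, 1 for each other member). Alternatives were quantile and median scaling, normexp on the median spot signal (offset 50, since no mean spot signal is in the files), the deposited values, other filters, an intensity trend, array weights, fixed and random replicate blocks, the scan day as a block, the mean of the 2 GPX1 probes, and leaving out each array or pair. Leaving out the later scanned arrays and the block with median scaling were chosen after seeing the data.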

Additional observations from a re-analysis of the deposited data

Results flagged for a closer look

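Of 62 groups of 4 arrays, 5 held 1 array that stood far apart from its group, where about 3.1 would do so by chance, and none of the 5 was a level of the 7 genes described. In 4 of them the array was M1 replicate 4, the only M1 array of the later scan days. Its median negative control signal was also the highest of the 8 arrays, at 4.90 scanner units. On A46 replicates 3 and 4, also scanned later, that signal was 2.78 and 2.80, and on the 5 earlier arrays 1.11 to 1.41. The 4 were GPX6 (-6.64, others -8.41 to -8.21), GPX5 (-8.75, others -10.38 to -10.15), SEPSECS (-5.76, others -6.29 to -6.22) and ACKR1 (1.54, others 0.61 to 0.69). For each of these genes all 3 later scanned arrays, of both areas, lay above the 5 earlier ones. Between later and earlier arrays 30.0% of all tested probes did not overlap, in either direction. GPX6 and GPX5 were not well above background on any M1 array. The remaining one was UGT8 on M1 replicate 2 (-1.14, others -2.28 to -2.13).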

How the results depend on the processing

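With the replicate number as a block, fixed or random, and with the fixed block under quantile, normexp or median scaling, 1 of the 7 members passed, SELENOP, against 0 without a block. Leaving out single arrays gave 0, and leaving out single pairs in the blocked fit gave 0 to 1, the 1 being without pair 3. SELENOP was above 0 in all 28 alternatives (0.46 to 0.83, adjusted p 0.0136 to 0.693) and passed in 6. GPX4 was below 0 in all 28. The sign changed under some alternatives, never with a call, in 2 of 29 for GPX1 on probe A_01_P009908, 4 of 28 on A_01_P012700, 4 for GPX3, 8 for SELENOW, 4 for SELENOK and 5 for SELENOT. Over all probes 27 passed on area alone, 41 after normexp, 45 with an intensity trend, 138 with array weights, 153 with the scan day as a block, 380 with the replicate block, 984 with a random replicate block, and 386, 487 and 409 with the block under quantile, normexp and median scaling. With no filter on dim probes 0 passed in limma (1371 at an unadjusted p under 0.05), as with the block and no filter (2955) and without the 3 later arrays (1206). Leaving out single arrays gave 0 to 4, and leaving out single pairs in the blocked fit 0 to 405. The cause was not tested. The slide as a random block could not be fitted, since only 1 slide held 2 arrays.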
